A study of Mus musculus with 7 samples.

Results

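The regions described here are 164 autosomal stretches of 1 kb that were both rich in CpG and highly methylated in cultured mouse dermal fibroblasts. The autosomes were divided into 1-kb bins from position 0, and a bin was kept when at least 100 of its cytosines were listed as CpG and their mean methylation was 80% or more. Of 2297432 autosomal bins with a listed CpG cytosine, 12945 held 100 or more, and 164 of those passed the methylation threshold. The members were chosen by their methylation percentages, so their high level is a description. Most CpG-dense bins were the opposite: 12330 had a mean under 20% and 451 had a mean of 20 to 80%, and these 2 groups serve below as the comparison.

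In mammals, DNA methylation is placed mainly on the cytosine of CpG pairs, and methylated CpG mutates readily, so that most of the genome has few CpGs. CpG islands are the exception: they are CpG-dense, usually lie at gene starts and are usually unmethylated, and methylation of an island at a promoter goes with a silent gene. Methylation inside the body of a gene is common in transcribed genes.

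The cells were primary cultures from the skin of female mice of strain FVB/N, kept in serum-containing DMEM/F12 GlutaMAX for 8 days. They were left untreated or given thapsigargin, an inhibitor of the calcium pump of the endoplasmic reticulum that raises the stress factor ATF4, for 3 h. Methylation came from 2 bisulfite libraries of untreated cells, held as 1 pooled percent per cytosine with no coverage. Each state had 1 RNA library and 1 immunoprecipitation of the bZIP factor CEBPB, and ATF4 was immunoprecipitated once, after treatment, so no comparison between states has a replicate. Among marker genes, the 10 fibroblast genes had untreated levels of 13.9 FPKM or above, with Col1a1 at 6473. FPKM counts sequenced fragments per kb of transcript, scaled to library size. All 6 macrophage and leukocyte markers were also present, at 4.41 to 880 untreated and 3.26 to 951 treated. The 6 keratinocyte markers were at 1.21 to 7.17 untreated and at 0.883 or lower after treatment, and the germ cell markers did not exceed 0.294. RNA of markers of other cell types was thus present, the methylation is an average over the cells present, and the part of those cells in the values below was not tested.

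Sequences of 3 kinds of methylated CpG-dense bin are shown first, because the bins differed by where they lay. They were read from the mm9 (NCBIM37) genome, 5′ to 3′, with each CpG in capitals. The first set is coding sequence: the 200 bases with the most CpGs in the Plec bin with the most cytosines, in the Shroom3 bin, which had the most cytosines of any member, and in the zinc finger array of Repin1.
Plec coding sequence, chr15:76010327-76010526, minus strand: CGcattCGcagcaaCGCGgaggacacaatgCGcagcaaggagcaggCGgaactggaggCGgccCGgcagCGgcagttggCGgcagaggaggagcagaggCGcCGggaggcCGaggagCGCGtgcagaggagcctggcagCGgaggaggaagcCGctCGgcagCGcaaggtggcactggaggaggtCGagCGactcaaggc
Shroom3 coding sequence, chr5:93371227-93371426, plus strand: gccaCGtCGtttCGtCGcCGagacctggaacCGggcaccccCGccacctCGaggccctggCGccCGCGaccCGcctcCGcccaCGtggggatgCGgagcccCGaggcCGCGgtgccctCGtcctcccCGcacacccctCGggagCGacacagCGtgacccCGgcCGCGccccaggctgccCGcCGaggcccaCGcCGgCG
Repin1 coding sequence, chr6:48547473-48547672, plus strand: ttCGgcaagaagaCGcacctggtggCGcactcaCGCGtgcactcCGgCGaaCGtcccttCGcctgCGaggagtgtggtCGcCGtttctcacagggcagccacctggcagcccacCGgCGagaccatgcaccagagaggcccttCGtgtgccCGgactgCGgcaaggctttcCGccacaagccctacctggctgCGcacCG
The second set is the 200 bases just before the annotated start of 2 genes that are active in the testis and were almost without RNA in these cells.
Stk31 upstream, chr6:49345403-49345602, plus strand: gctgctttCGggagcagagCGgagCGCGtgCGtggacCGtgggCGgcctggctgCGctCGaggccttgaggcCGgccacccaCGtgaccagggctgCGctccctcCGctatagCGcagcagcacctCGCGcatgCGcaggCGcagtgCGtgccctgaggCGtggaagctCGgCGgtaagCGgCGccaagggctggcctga
Hsf5 upstream, chr11:87430466-87430665, plus strand: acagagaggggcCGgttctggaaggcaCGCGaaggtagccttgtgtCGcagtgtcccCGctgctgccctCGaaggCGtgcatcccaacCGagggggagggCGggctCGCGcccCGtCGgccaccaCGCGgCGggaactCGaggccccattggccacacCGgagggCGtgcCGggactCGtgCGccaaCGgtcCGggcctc
The third is a tandem array between genes, of which 162 bases, or 3 periods of 54 bases, are given. The period of 54 was the distance at which the largest share of bases in the bin matched. Each period is itself made of a shorter repeated unit, tgctcaCG followed by g or c.
Tandem array, chr4:155511306-155511467, plus strand: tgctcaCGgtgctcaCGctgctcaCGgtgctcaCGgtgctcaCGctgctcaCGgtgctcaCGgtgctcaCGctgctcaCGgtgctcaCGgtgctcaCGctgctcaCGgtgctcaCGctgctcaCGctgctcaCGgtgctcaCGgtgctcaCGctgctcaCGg
The Plec window held 21 CpGs, and its 42 listed cytosines averaged 88.0% ± 8.59 (SD over cytosines), with a lowest of 55%. The Shroom3 window held 31 CpGs at 82.1% ± 13.4 over 62 cytosines, with a lowest of 28%, and the Repin1 window 20 CpGs at 92.6% ± 4.21 over 40 cytosines, none of them under 82%. Upstream of Hsf5 the mean was 84.1% ± 12.3 over 49 cytosines, with a lowest of 44%. Upstream of Stk31 it was 77.6% ± 19.8 over 46 cytosines and reached down to 0% at its lowest. In the tandem array 14 cytosines were listed for 18 CpGs, at 85.0% ± 27.8. Each CpG has a cytosine on both strands, so most cytosines of the array window were not listed. Repin1 was the most even of these 6 windows, Shroom3 varied about as much as the Hsf5 window, and the array held both unmethylated and fully methylated entries.

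The members ranged from 80.02% to 94.0% with a median of 87.9%, and they held 100 to 245 listed cytosines with a median of 108. Between 90% and 95% there were 38 bins, between 85% and 90% 84 bins, and between 80% and 85% 42 bins. Just inside the threshold lay bins of Hspa1l, Map3k4 and Lmtk3 at 80.02%, 80.1% and 80.2%. Just outside it lay 3 bins at 79.8%, 79.3% and 79.0%. The count threshold cut through a continuum: 13 members had exactly 100 cytosines, and 71 further bins of 80% or more had 95 to 99. In the members 18789 cytosines were listed against 19239 in the reference sequence (97.7%), a share that the minimum of 100 listed cytosines holds high. Of 14506 autosomal bins with 100 or more CpG cytosines in the reference, 12929 had 100 or more listed, so the others could not become members.

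**Figure D1:**
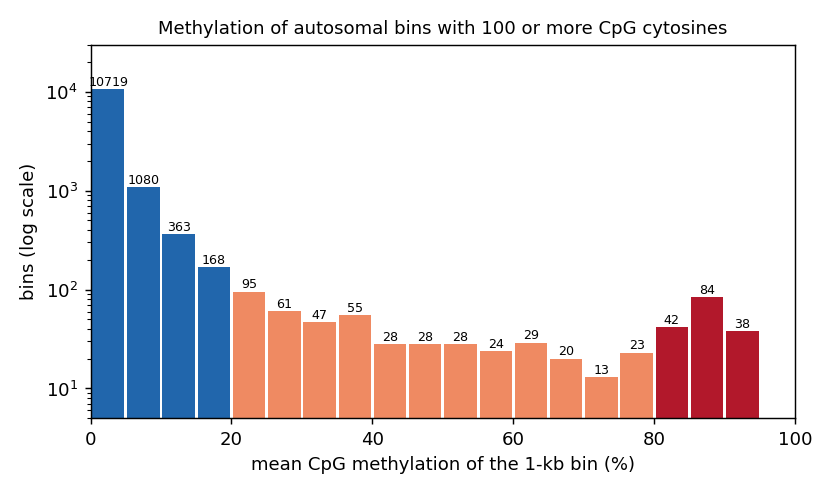
Number of autosomal 1-kb bins with 100 or more CpG cytosines (vertical axis, log scale) by mean methylation in steps of 5 percentage points (horizontal axis). Blue bars are bins under 20%, orange bars 20 to 80% and red bars the 164 bins at 80% or more; the counts fall from 10719 below 5% to 13 at 70 to 75% and reach 84 at 85 to 90%.

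Methylated CpG-dense bins lay mainly in exons. By annotation, 112 of 164 (68.3%) overlapped an exon without a gene start, 12 (7.32%) held a gene start, 6 (3.66%) lay in introns and 34 (20.7%) lay between genes. A gene start was the outermost annotated start of a gene. The start of any annotated transcript lay in 20 members (12.2%), 8 of them among the 112 that overlapped an exon. That share was 27.1% for bins of 20 to 80% and 72.8% for bins under 20%. Among CpG-dense bins under 20%, 59.6% held a gene start and 27.7% overlapped an exon without a gene start. Bins of 20 to 80% were close to the members in exons, at 66.5%, and held a gene start in 15.7%. Between genes lay 9.53% of bins of 20 to 80% and 7.78% of bins under 20%. Of all measured autosomal bins, 9.51% were in the exon class and 0.999% held a gene start. A further 32.4% of them lay in introns and 57.1% between genes, a larger share between genes than in the members. Without the 26 members that have copies elsewhere on the autosomes (300 aligned bases or more at 90% identity or more), 81.2% lay in exons and 7.97% between genes.

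**Figure D2:**
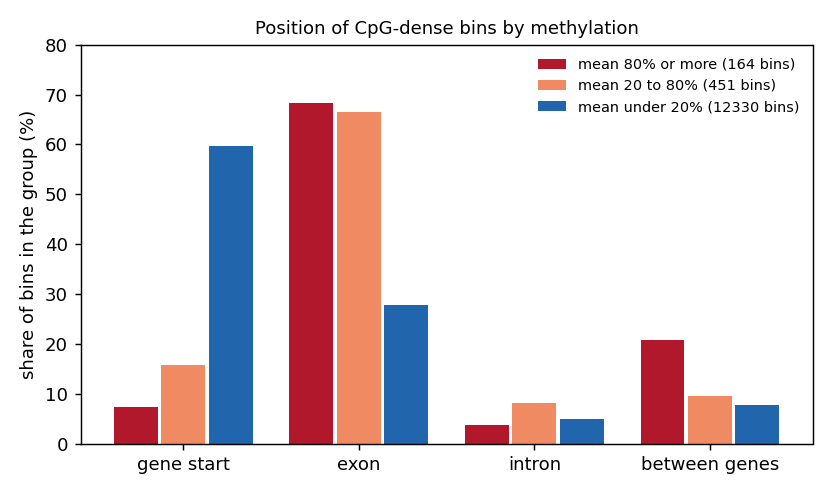
Share of CpG-dense bins (vertical axis, percent of each group) at a gene start, in exons, in introns and between genes, for 164 bins at 80% or more (red), 451 at 20 to 80% (orange) and 12330 under 20% (blue). The red bars are high in exons (68.3%) and between genes (20.7%), and the blue bar is high at gene starts (59.6%).

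Most exonic members were coding sequence in long exons. Of the 112, 110 held coding bases, 101 were coding over at least 500 bases and 47 were coding throughout; the main exon was 1 kb or longer for 90. The main exon was internal for 56, the last for 51 and the first for 5, whereas 70.3% of the exonic bins under 20% lay in first exons. The median length of that exon was 2050 bases for members, 1207.5 for bins of 20 to 80% and 426.5 for bins under 20%. Taken over all CpG-dense bins, 64.0% of members were coding over 500 bases or more, against 44.1% at 20 to 80% and 6.76% under 20%. Among all measured autosomal bins the share was 0.472%.

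The 164 bins formed 151 runs, of which 141 were single bins, 7 had 2 bins and 3 had 3. Plec, which encodes the cytoskeletal linker plectin, held the most members, with 7 bins in 2 runs of 3 and 1 bin between them. The gene lies on the minus strand at chr15:76001404-76063004. The run nearer its 5′ end, chr15:76009001-76012000, held 434 cytosines at 90.9%, inside an exon of 3381 bases. The run nearer its 3′ end, chr15:76003001-76006000, held 320 cytosines at 92.5% in the last exon, of 7412 bases. Along the 63 bins of the gene, methylation ran from 1.28% to 93.3%. Of the 11 bins under 20%, 4 lay within 3.5 kb of the start and 7 inside the gene, at 24.5, 25.5, 32.5, 33.5, 34.5, 36.5 and 42.5 kb, and all bins from 43.5 kb to the end stood at 69.7% or more. Plec RNA was at 27.7 FPKM untreated and 29.6 after thapsigargin.

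**Figure D3:**
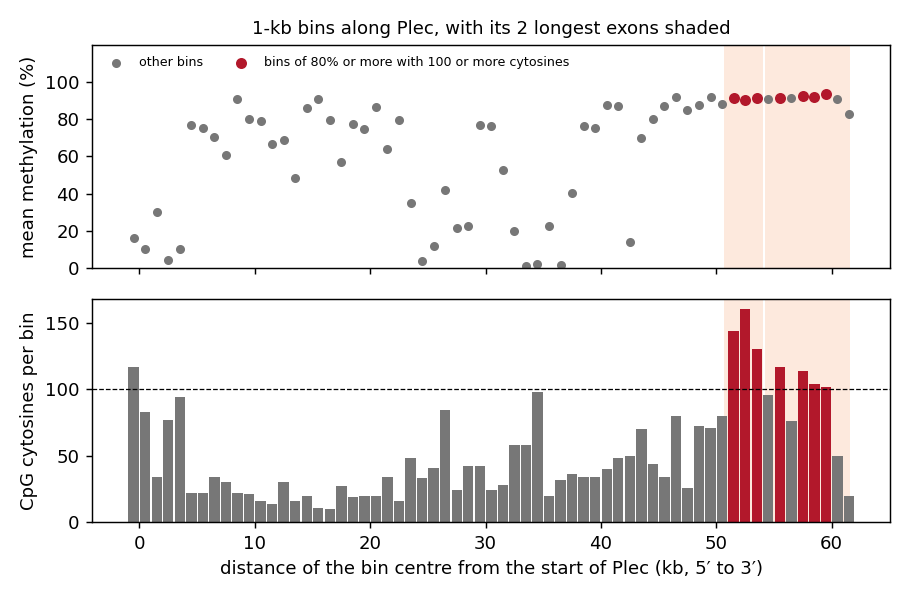
Mean methylation (top, percent) and number of listed CpG cytosines (bottom) of each 1-kb bin along Plec, by distance of the bin centre from the gene start in kb, with the 2 longest exons shaded and a dashed line at 100 cytosines. The 7 red bins, at 90.1% to 93.3%, all lie in these exons, and the bins at the gene start are low.

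Another 11 genes held 2 or 3 members. Fat1, a giant cadherin, held 3 bins at a mean of 90.7%. The zinc finger genes Zfp865 and Zfhx3 held 3 each, at 85.7% and 89.5%. Scaf1, an arginine and serine rich protein of the transcription machinery, Zfp64, Lmtk3, ORF61, Mtap1s, the transcription factor gene Bcl11b and the seven-pass cadherin genes Celsr1 and Celsr2 held 2 each. The single bin of Shroom3, an actin-binding protein of epithelial shape, had 245 cytosines at 83.3%. Next came bins of Bcl11b and Zfp865 with 172 each, at 89.8% and 82.8%, Plec with 160 and Scaf1 with 158. The highest mean was 94.0%, in an intron of Bptf, which encodes a chromatin remodelling subunit; that bin has 22 copies elsewhere. A coding bin of Srrm2, a splicing factor rich in repeats of arginine and serine, stood at 93.6%.

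Zinc finger arrays were frequent among the coding members. A translated frame with at least 2 matches to the spacing of C2H2 zinc fingers was found in 14 members from 12 genes, at 82.0% to 91.9% methylation: Zfp334, Zfp64, Repin1, Zfp775, Zfp865, Zfp324, Zfp574, Klf13, Zfp319, Zfhx3, Bcl11b and Zfp13. Among bins that were coding over 500 bases or more, 12 of 105 members (11.4%) held such an array, against 17 of 834 bins under 20% (2.04%). All 12 genes had RNA at FPKM 1 or more untreated, from 1.46 to 15.4. By list, 8 of 388 genes named Zfp, Zscan or Zkscan held a member (2.06%) and 5 of 40 listed large CpG-rich coding genes did (Celsr1, Celsr2, Plec, Srrm2 and Zfhx3), beside 124 of 25087 annotated genes (0.494%). No member lay in any of 51 imprinted genes, 24 clustered protocadherin genes, 1440 olfactory and vomeronasal receptor genes or 31 genes of the methylation machinery. At a share of 0.494%, the lists of 51, 24 and 31 genes are too short for their lack of members to be read as avoidance. The lists were drawn up with earlier results of these data known.

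Members between genes were largely repeated sequence. Of the 34, 23 had at least 1 copy elsewhere on the autosomes, with up to 212 copies. A copy was an alignment of 300 bases or more at 90% identity or more. The sex chromosomes and unplaced sequence were not searched, so copies there would be missed. Another 4 without copies were tandem arrays, in which at least 50% of the bases matched the base 1 period away, and 7 were neither. Copies were found for 3 of the 6 intronic members and for none of the 124 members in exons or at gene starts. Aligned to transcripts instead of the autosomes, the bin of Cdc34-ps matched the Cdc34 transcript over 736 bases at 95.2% identity. The bins of Tubb6 and Hspa1l matched transcripts of Tubb3 and Hspa1a at 89.9% and 87.1%, so reads of these genes may be shared with their relatives. Between genes, 33 of 959 bins under 20% (3.44%) and 14 of 43 bins of 20 to 80% (32.6%) had copies. Reads can be placed at the wrong copy, and the authors' handling of such reads is not stated in the labels; the part of this in the values was not tested. The cytosines of members between genes were less even than those in exons: the median SD over cytosines was 15.9 against 8.23 percentage points, and the median difference between the paired strands of a CpG was 12.3 against 6.64. A cytosine under 20% was listed in 22 of 34 members between genes and in 21 of 112 exonic ones.

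The members stood in methylated surroundings. From 1 kb to either side the median of neighbouring bins was 85.9% and 85.2%, and at 10 kb it was 72.1% and 73.3%, beside 72.8% for all measured bins. The CpG count fell more sharply, from a median of 108 cytosines to 38 and 37 in the adjoining bins. A CpG-dense bin under 20% lay within 5 kb of 20 of the 112 exonic members and of none of the others. Members were also uneven over chromosomes: chromosomes 7, 10, 12 and 15 held 68 of 164 (41.5%) and 2743 of all 12945 CpG-dense bins (21.2%). Chromosome 7 alone held 24.

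Genes that start in a methylated CpG-dense bin were almost without RNA. Of 12 such genes, 9 had an RNA entry, and none reached FPKM 1 in either library. In bulk RNA, fewer cells with a transcript and less of it per cell cannot be told apart. D1Pas1, a testis RNA helicase related to DDX3, was highest at 0.239 untreated and 0.459 treated. Hsf5, a heat shock factor family member of the testis, was at 0.0109 and 0.0492. Stk31, a kinase-like gene of the male germ line, was listed at 0 and 0.00228. Tex12, a component of the synaptonemal complex of meiosis, was listed at 0 and 0.0158, and the fucosyltransferase gene Sec1 at 0 and 0.0371. Dmrtb1, a transcription factor of spermatogenesis, and Trim52 were listed at 0 in both. The bins at these starts stood at 83.3% (D1Pas1), 82.6% (Hsf5), 82.7% (Stk31), 81.0% (Tex12), 84.3% (Sec1), 85.0% (Dmrtb1) and 90.4% (Trim52). D1Pas1 and Trim52 have a single exon, and Cdc34-ps, which starts in a member at 80.2%, had no RNA entry. Some of these bins also overlapped an exon of another gene. The starting bins of Gm16599, Sec1, 4933416C03Rik and CT009512.1 did so in Cux1, Ntn5, Ptprr and Cdh24. Untreated RNA of those overlapped genes was at 16.8, 0.0418, 0.675 and 2.82 FPKM.

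For comparison, 82.5% of 7725 genes that start in CpG-dense bins under 20% reached FPKM 1 untreated, with a median of 8.70. Of 63 genes that start in bins of 20 to 80%, 33.3% did, with a median of 0.140. Of 12209 genes that start outside CpG-dense bins, 38.9% did, with a median of 0.132, so most genes of that class were also below FPKM 1. Among 81 annotated genes of a germline list, Dmrtb1 started in a member, 11 started in bins of 20 to 80%, among them Dazl, Ddx4, Mael and Dmc1, 11 in bins under 20% and 58 outside CpG-dense bins. Of all 25087 annotated genes, 12 started in a member, 78 in bins of 20 to 80% and 8399 in bins under 20%. High methylation at a CpG-dense start and RNA below FPKM 1 thus occurred together in all 9 genes measured, but 9 genes and 1 library per state are few.

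Most genes with the member inside an exon had RNA at FPKM 1 or more. Of 96 with values of status OK in both libraries, 81 (84.4%) reached it untreated and 15 did not. The share was 51.5% for all autosomal entries and 82.5% for genes that start in CpG-dense bins under 20%. Levels of the 96 ran from 0.00186 to 278, with a median of 7.50 untreated and 5.05 treated. The medians were 1.26 and 0.689 for all entries, and 8.70 and 5.61 for genes that start in CpG-dense bins under 20%. The highest of the 96 was Tnc, the matrix glycoprotein tenascin C, at 278 untreated and 397 treated, with a member at 87.6%. F2r, a thrombin receptor, was at 162 and 108 with a member at 89.9%. The tubulin gene Tubb6 was at 116 and 173 with a member at 91.9%, and Snrnp70, a protein of the U1 splicing particle, was at 86.4 and 53.1. At the low end, the unconventional myosin gene Myo15 was at 0.00186 and the neuronal factor gene Cux2 at 0.106 untreated. Exonic methylation of 80% or more was thus found over a wide range of RNA levels.

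**Figure D4:**
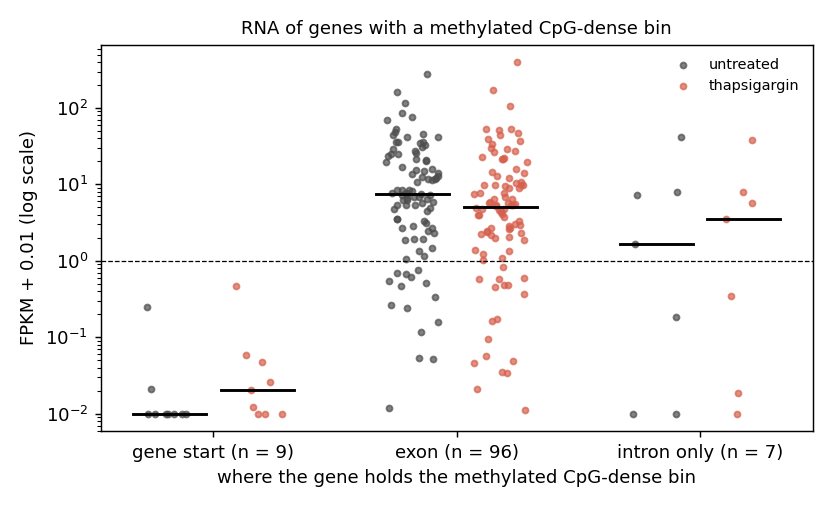
RNA level of genes with a methylated CpG-dense bin (vertical axis, FPKM + 0.01, log scale) by where the bin lies, in the untreated (grey) and thapsigargin (red) library; each point is a gene, black lines are medians and the dashed line is at 1. The 9 genes with the bin at their start all lie below 1, and 81 of the 96 with an exonic bin lie above it untreated.

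After thapsigargin, genes with a member were called at rates near those of all genes. Of 86 genes that reached FPKM 1 in at least 1 library, 3 (3.49%) were higher by 1 or more on the log2(FPKM + 1) scale, beside 6.05% of all expressed entries. In the other direction 23 (26.7%) were lower, beside 28.3%. The median change was −0.41, against −0.52 for all entries. After centring on that −0.52, 9 genes with a member (10.5%) were higher, beside 13.3% of all entries, and 5 (5.81%) were lower, beside 12.9%. The higher side then held 64.3% of their calls instead of 11.5%, a split that rests on these few genes. For all entries the same step moved the split from 17.6% to 50.7%. Differences on this scale understate changes of low genes.

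Bdkrb2, the bradykinin B2 receptor, went from 0.756 (0.585 to 0.928, the authors' confidence bounds) to 5.60 (5.28 to 5.92), a difference of 1.91. Another was 1110012J17Rik, with its member in an intron, at 1.66 untreated and 7.87 treated. Below the threshold of 1 came the splicing factor gene Srsf4 with a difference of 0.98, Zfp324 with 0.87, Tubb6 with 0.58 and the cold-inducible RNA-binding gene Cirbp with 0.56.

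The largest decrease was in Odz3, a teneurin, from 20.96 to 2.24, a difference of −2.76. Plxnb2, a semaphorin receptor, went from 69.8 to 15.9, and Dync1h1, the heavy chain of dynein, from 30.5 to 7.72, differences of −2.06 and −1.85. Tnrc18 differed by −1.78, Pcdh1, a cell adhesion protocadherin, by −1.52, the SUMO ligase gene Pias4 by −1.50, Kank2 by −1.47 and Map3k4 by −1.41. After centring, the first 5 of these 8 were still lower by 1 or more. Over all genes the change went with the density of exon junctions, with a median of −0.17 below 2 junctions per kb and −1.34 at 6 or more. Genes with a member had a median of 1.78 junctions per kb, against 2.97 for all matched genes. Within 2 to 4 junctions per kb the member median was −0.67 against −0.46, and below 2 it was −0.33 against −0.17. Within 4 to 6 it was −0.77 against −0.81 over 15 genes, and the single gene above 6 was at −0.40 against −1.34. The part of junction density in these values was not tested.

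Genes of the methylation machinery were measured beside this. The maintenance methyltransferase gene Dnmt1 was at 15.4 untreated, with a failed status, and 4.16 treated. The de novo enzyme genes Dnmt3a and Dnmt3b were at 11.9 and 5.38, and at 0.881 and 0.647. Uhrf1, which guides DNMT1 to replicated DNA, was at 5.48 and 4.41. The oxidising enzyme genes Tet1, Tet2 and Tet3 were at 0.789 and 0.130, 1.704 and 2.58, and 5.23 and 1.34. Methylation was measured in untreated cells only.

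Peaks of CEBPB were nearly absent from the members. None of the 164 bins touched one of the 7222 autosomal CEBPB peaks of untreated cells, beside 0.46% of all measured bins, and a count of 0 allows a share of up to 1.83%. A single bin, in an intron of Gm7247, touched a CEBPB peak of treated cells (0.610%), beside 0.392% of all bins. CpG-dense bins under 20% touched CEBPB peaks in 2.64% and 2.15%. With 164 bins, a share near that of the genome was not distinguishable from 0.

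ATF4 peaks were common in the members. Of 164 bins, 49 (29.9%, Wilson 95% interval 23.4 to 37.3%) touched one of 9833 autosomal ATF4 peaks, beside 0.535% of all measured bins. The share was 38.6% (34.2 to 43.2%) at 20 to 80% methylation and 53.6% (52.7 to 54.5%) under 20%. Intervals cover counting error only, and neighbouring bins share loci. By position, 10 of 12 members at gene starts touched a peak, 33 of 112 in exons, 2 of 6 in introns and 4 of 34 between genes. At gene starts this share (83.3%) was above those of bins of 20 to 80% (47.9%) and under 20% (58.6%), over only 12 bins. The starting bins of Gm16599, Sec1, 4933416C03Rik and CT009512.1, which overlap exons of other genes, all touched a peak. In exons it was 29.5%, against 114 of 300 bins of 20 to 80% and 50.4% of bins under 20%, and between genes 11.8%, against 32.6% and 38.5%. The ATF4 list came from treated cells and the methylation from untreated ones, and whether a control library was used in calling peaks is not stated in the labels.

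The ATF4 share moved with the CpG count of a bin at every methylation level. Among bins of 80% or more it was 0.0683% at 1 to 20 listed cytosines, 3.79% at 61 to 80, 24.4% at 100 to 119 and 48.6% at 120 or more. Among bins under 20% it was 0.0934%, 17.7%, 38.6% and 59.2% over the same counts. In bins coding over 500 bases or more, with 100 to 119 cytosines, 16 of 76 members (21.1%) touched a peak, against 24.1% at 20 to 80% and 23.0% under 20%. At 120 or more the shares were 51.7%, 54.3% and 63.9%. The part of CpG or GC content in the peak list was not tested.

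**Figure D5:**
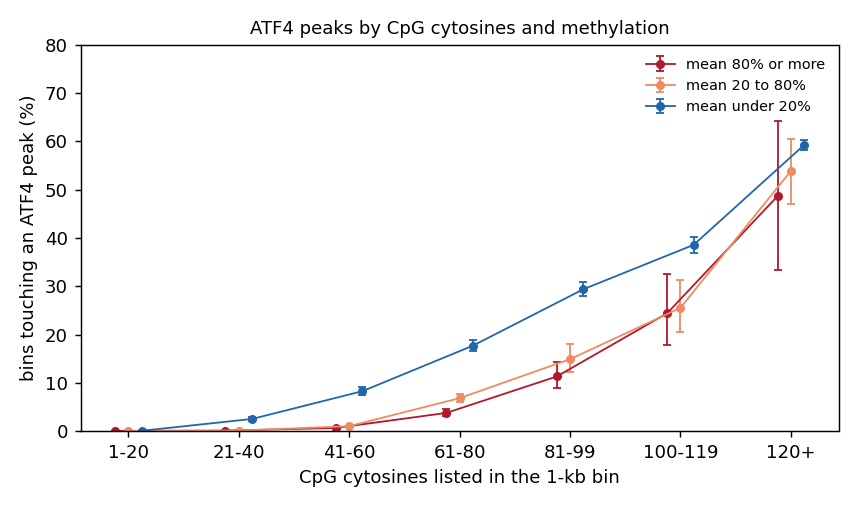
Share of autosomal 1-kb bins that touch an ATF4 peak (vertical axis, percent) by number of listed CpG cytosines in the bin (horizontal axis) for bins at 80% or more (red), 20 to 80% (orange) and under 20% (blue), with Wilson 95% intervals. All 3 curves climb with the CpG count, the red one to 24.4% at 100 to 119 and 48.6% at 120 or more.

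The 49 bins touched 52 peaks. Methylation under these peaks comes from the same values that chose the bins, so it is a description. The means ran from 77.7% to 92.4%, with a median of 88.3%. Their scores, given by the authors, ran from 2.53 to 13.8 with a median of 5.38, beside a median of 5.46 and a maximum of 245 for the whole list. The highest was the peak at the start of Stk31, chr6:49345365-49345768, with a score of 13.8, rank 377, and a mean of 79.8% ± 17.2 over 66 cytosines. It covers the whole upstream sequence printed above and runs on into the gene. Next came peaks in Zfp775 (score 11.6, 86.4%), between genes on chromosome 17 (11.6, 88.4%), in the Hippo pathway kinase gene Lats2 (9.91, 89.3%) and at the start of Dmrtb1 (9.11, 84.2%).

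Recognition sequences of bZIP factors were present in the members at a share near that of all bins. Any of 5 such sequences was in 6 of 164 members (3.66%), beside 4.83% of all measured bins and 6.74% of CpG-dense bins under 20%. Searched on both strands, TGACGTCA was in 4 members (2.44%), beside 0.580% of all measured bins and 3.52% of CpG-dense bins under 20%. CGATGCAA was in 1 member (0.610%, all bins 0.811%) and TTGCATCA in 1 (0.610%, all bins 3.13%). TTGCGCAA and TGACGCAA were in none, beside 0.0859% and 0.272% of all bins. Any of the 5 was present in 1 of the 49 members with an ATF4 peak, the bin at the start of Trim52, and in 5 of the 115 without one. Among bins under 20% with an ATF4 peak, 7.49% held one.

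RNA changes are set side by side here for genes with and without an ATF4 peak in an exonic member. Of 32 expressed genes with such a peak, 10 (31.25%) were lower and 0 higher, with a median difference of −0.42. Of 50 without one, 13 (26%) were lower and 2 (4%) higher, with a median of −0.45. Among all expressed autosomal entries 28.3% were lower and 6.05% higher, with a median of −0.52. The share of lower genes was thus near that of all entries in both sets. No test was made, since each state had 1 RNA library.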

How the data were processed

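Bisulfite, RNA and immunoprecipitation files of 7 libraries in 6 groups were used as deposited. The submitters' processing notes name mm9 and CASAVA 1.8 and Novoalign (bisulfite), CASAVA 1.8.2 and Bowtie (RNA) and CASAVA 1.7, BWA and SAMtools (immunoprecipitation). Methylation was a percent per CpG cytosine, deposited by the authors for both bisulfite libraries pooled, without coverage, so no read minimum or interval was possible. Entries marked heterozygous were left out. RNA values were FPKM with confidence bounds, deposited by the authors, without read totals, so counting error is given only by those bounds. Peak lists held a score per peak, deposited by the authors for each library. For the peak caller, its control and the program behind FPKM, the sources used here give no name. Of 37019563 listed autosomal CpG cytosines, 98.6% lay on a CpG of the NCBIM37 genome with the listed strand.

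Bins were classed with GENCODE vM1 genes of protein-coding, lincRNA and processed-transcript type, in the order gene start, exon, intron, between genes. Any exonic base placed a bin without a gene start in the exon class. Peak overlap was 1 bp or more. Copies were sought on the autosomes alone with minimap2 2.31-r1302 (300 aligned bases, 90% identity) and frames translated with Biopython 1.88. Tandem periods up to 200 bases were tried. Repeats marked by lower case could not be used, as the genome was in capitals. Genes were matched to RNA entries by symbol and overlap, for 113 of 124. Changes were differences of log2(FPKM + 1) for entries at FPKM 1 or more in either library. No p-value was computed, because each state had 1 library and the bins were chosen by methylation. Binning and overlap were tested on simulated data in Python 3.11.15.

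Named bins and genes were the longest runs, the bins with the most cytosines or highest means, genes with the most bins, starting genes, bins with the highest peak scores, the 8 largest changes each way and 7 methylation enzymes; some numbered gene models were passed over, and 1 gene that this rule takes is not reported here. Some genes, such as Myo15 and Cux2, were named after their values were seen. The members, lists and thresholds were chosen with earlier results of these data known.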

Additional observations from a re-analysis of the deposited data

How the results depend on the processing

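Of 125 values recomputed under other settings, 88 stayed within the interval of a share or within 1.5 times of a count or median, 36 moved further and 1 changed sign. The sign change was the median log2 change of genes with a member, 0.10 after centring on all expressed entries, where 9 genes were higher and 5 lower. A mean of 90% or more left 38 bins in 34 runs, with 2.63% at a gene start and 76.3% in exons. Of these bins 0% touched a treated CEBPB peak and 15.8% an ATF4 peak. Trim52, the only starting gene left, was at FPKM 0 after treatment, and 1 gene was higher and 5 lower. A mean of 70% or more gave 5 genes higher. With 80 or more cytosines there were 752 bins in 695 runs, 3.72% at a gene start and 15.03% touching an ATF4 peak. With 120 or more there were 37 bins in 34 runs, 81.1% in exons and 10.8% between genes. Of these bins 0% touched a treated CEBPB peak and 48.6% an ATF4 peak, and 0 genes were higher and 7 lower. The median FPKM of starting genes was 0.125 untreated and 0.254 treated, from D1Pas1 and Hsf5 alone. Bins divided from position 500 lay in exons in 75.9% and between genes in 14.7%, touched a treated CEBPB peak in 0% and gave starting genes a median FPKM of 0.0105 untreated. Peaks at or above the median score of their list touched 0% (treated CEBPB) and 14.0% (ATF4) of members. At FPKM 5 or more in both libraries, 0 genes were higher and 10 lower. Counts of higher and lower genes in this section are given without the number of genes tested. Lower genes also outnumbered higher ones among all expressed entries at the main setting, 3302 (28.3%) against 707 (6.05%). These counts are therefore not a trait of the members. The share of all entries at FPKM 5 is not given. Leaving out copied bins, a setting chosen after seeing the data, put 81.2% in exons and 7.97% between genes. The causes were not tested; stricter settings hold fewer bins or genes. The loci of the RNA tables carry no strand or exons, so that setting gave only the share between genes. No paired analysis was possible because no result comes from a test and the bisulfite libraries are pooled, which also means that no replicate could be left out. Without coverage, the precision of each percent is unknown.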
